A study of Homo sapiens with 3 samples.

Results

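The proteasome genes were taken as every gene of the deposited table whose symbol consists of PSM, a letter from A to G and a number, which gave 48 of 55773 genes. They comprised 7 genes of the alpha ring and 7 of the constitutive beta ring of the core particle, 3 inducible beta genes, 2 core genes of restricted tissues, 9 base and 8 lid genes of the regulatory particle, 3 chaperones of the base, 4 activators, 1 inhibitor and 4 chaperones of the core. RNA was sequenced from 3 lines of HaCaT, an immortalised human keratinocyte line, with 1 library per line. Every line carried the oncogenic G12V form of HRAS, the controls included. The control line carried in addition an empty vector, and the other lines wild-type THG-1 or THG-1 with the S264A substitution, in which a serine is replaced by alanine. THG-1 is the protein of TSC22D4, and the cells were grown in DMEM with 10% fetal bovine serum. The promoter that drives the transgenes and whether a line is a clone or a pool are not stated in the sources used here.

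The proteasome degrades proteins that carry ubiquitin chains. Its core particle is a barrel of alpha and beta rings, in which 3 beta subunits carry the active sites, and the regulatory particle caps the barrel. The base of the cap unfolds substrates with a ring of ATPases, and the lid removes the ubiquitin. Interferons and other inflammatory signals induce alternative catalytic subunits, encoded by PSMB8, PSMB9 and PSMB10, which replace their constitutive counterparts and give the immunoproteasome. The immunoproteasome and the interferon-inducible activator PA28, encoded by PSME1 and PSME2, supply peptides for presentation on HLA class I, also in keratinocytes.

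The promoters of the inducible genes are shown first, because the interferon-stimulated response element, a site for interferon-activated factors, is a textbook feature of this group. The sequences are RefSeq's (GRCh38.p14), from 250 bases before to 50 bases after the transcription start, 5′ to 3′ on the strand of the gene, with matches to the core GAAANNGAAA on either strand in capitals. The chaperone gene PSMG4 is added because it holds the same letters. For PSMB8, which has more than 1 start in the table, the start with a match is shown.
PSMB8 (chr6:32843998-32844297, minus strand): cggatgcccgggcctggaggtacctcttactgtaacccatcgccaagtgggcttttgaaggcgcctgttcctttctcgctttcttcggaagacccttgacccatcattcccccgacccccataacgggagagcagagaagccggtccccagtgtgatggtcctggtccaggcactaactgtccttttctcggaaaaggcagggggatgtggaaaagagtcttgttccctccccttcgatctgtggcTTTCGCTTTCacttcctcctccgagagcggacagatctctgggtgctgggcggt
PSMB9 (chr6:32853942-32854241, plus strand): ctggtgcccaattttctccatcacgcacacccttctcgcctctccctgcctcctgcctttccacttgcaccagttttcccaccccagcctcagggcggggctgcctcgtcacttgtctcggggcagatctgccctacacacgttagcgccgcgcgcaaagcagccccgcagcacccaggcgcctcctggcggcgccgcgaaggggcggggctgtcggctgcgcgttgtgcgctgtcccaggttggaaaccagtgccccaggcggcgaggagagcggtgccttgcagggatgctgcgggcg
PSMB10 (chr16:67936801-67937100, minus strand): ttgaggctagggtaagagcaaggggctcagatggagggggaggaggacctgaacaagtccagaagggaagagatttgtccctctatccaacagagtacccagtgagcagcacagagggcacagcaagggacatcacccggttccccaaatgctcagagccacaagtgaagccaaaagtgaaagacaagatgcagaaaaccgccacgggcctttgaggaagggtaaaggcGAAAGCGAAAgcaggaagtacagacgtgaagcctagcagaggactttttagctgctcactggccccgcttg
PSME1 (chr14:24135944-24136243, plus strand): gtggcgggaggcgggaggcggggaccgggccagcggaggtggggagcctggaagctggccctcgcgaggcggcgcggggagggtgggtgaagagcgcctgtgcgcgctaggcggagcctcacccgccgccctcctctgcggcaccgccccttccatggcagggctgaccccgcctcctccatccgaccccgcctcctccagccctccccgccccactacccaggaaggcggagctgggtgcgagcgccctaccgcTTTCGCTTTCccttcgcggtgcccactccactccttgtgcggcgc
PSME2 (chr14:24146561-24146860, minus strand): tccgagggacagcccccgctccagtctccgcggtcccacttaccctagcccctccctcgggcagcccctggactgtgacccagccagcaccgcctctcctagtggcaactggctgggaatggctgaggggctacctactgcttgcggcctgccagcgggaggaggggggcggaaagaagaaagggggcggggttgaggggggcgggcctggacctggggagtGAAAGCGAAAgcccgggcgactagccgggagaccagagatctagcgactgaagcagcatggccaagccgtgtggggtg
PSMG4 (chr6:3258697-3258996, plus strand): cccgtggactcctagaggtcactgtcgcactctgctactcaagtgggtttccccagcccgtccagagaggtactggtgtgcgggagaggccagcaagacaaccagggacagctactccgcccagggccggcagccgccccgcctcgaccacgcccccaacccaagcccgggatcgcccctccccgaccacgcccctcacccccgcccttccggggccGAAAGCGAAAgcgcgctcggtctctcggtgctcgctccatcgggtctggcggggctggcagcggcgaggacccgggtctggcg
The table held promoters for 42 of the 48 genes. The core was found in 7 of the 42 (16.7%), namely PSMA4, PSMB4, PSMB8, PSMB10, PSME1, PSME2 and PSMG4, against 4.38% of 27305 genes with a promoter. In PSMB8, PSMB10, PSME1, PSME2 and PSMG4 the match was the same stretch, GAAAGCGAAA on one strand or the other. That stretch was found in 34 of the 27305 genes (0.125%) and was singled out after it had been seen. Its first base lay at -4 in PSMB8, -21 in PSMB10, +6 in PSME1, -28 in PSME2 and -33 in PSMG4, counted from the start. In PSMB9 these letters are not in this window. The NF-kB motif searched, GGGNNTTTCC on either strand, was found in 1 gene of the 42, PSMD6 (2.38%), against 2.33% of all genes. The antioxidant response core TGACNNNGC was in 15 of 42 (35.7%, against 16.1% of all) and the NF-Y box CCAAT in 20 of 42 (47.6%, against 39.7%), and matches of both kinds can overlap other motifs.

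Levels are given in RPKM, the reads of a gene scaled by the length of the gene and by the depth of the library. The depths recovered from the values were 32055052 reads with empty vector, 12733479 with wild-type THG-1 and 14022885 with S264A. Since there are no replicates, no p-value is given, and a difference between libraries cannot be told apart from variation between cultures. Ratios carry an exact 95% interval from the reads, which covers counting error only. For PSMA2, PSMA4, PSMA6, PSMB2, PSMC1 and PSMF1 the recovered reads share a common factor, so that fewer reads at a shorter length fit as well. The intervals of these genes may be too narrow. TSC22D4 itself stood at 7.98 RPKM with empty vector, 64.9 with wild type and 51.1 with S264A. All 8 keratinocyte markers were above 1 RPKM in every library. The summed level of 10 immune markers was 1.20, 5.48 and 2.11 RPKM in the same order. CD68, a lysosomal protein gene that is not limited to leukocytes, made up 0.941, 5.21 and 1.70 RPKM of these sums, and the pan-leukocyte gene PTPRC was at 0.00367, 0 and 0.00838 RPKM. MS4A1, NKG7 and TYROBP were among those listed at 0 in every library, and the part of these markers in the values of the inducible subunits was not tested. The 6 fibroblast markers summed to at most 0.825 RPKM and the endothelial markers to at most 1.66 RPKM. In such bulk libraries fewer cells of a type and less RNA per cell cannot be told apart.

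Of the 48 genes, 46 were expressed above 1 RPKM in every library, and 2 were listed at 0 in all of them. These 2 were PSMA8, an alpha subunit of germ cells, and PSMB11, the beta subunit of thymic epithelium. The 46 expressed genes had between 151 and 8535 reads per library. PSMA7, an alpha ring subunit, had the highest level in all 3 lines, at 104, 109 and 92.5 RPKM. The lowest was PSMG4 at 1.62, 1.54 and 1.5 RPKM. Comparisons of level between genes depend on the length used for RPKM, which ranged from 1179 bases for PSMB3 to 10418 bases for PSMG4 because it covers all annotated exons. PSMD6 and PSMD9, near the bottom of the range, had recovered lengths of 9095 and 8778 bases.

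**Figure D1:**
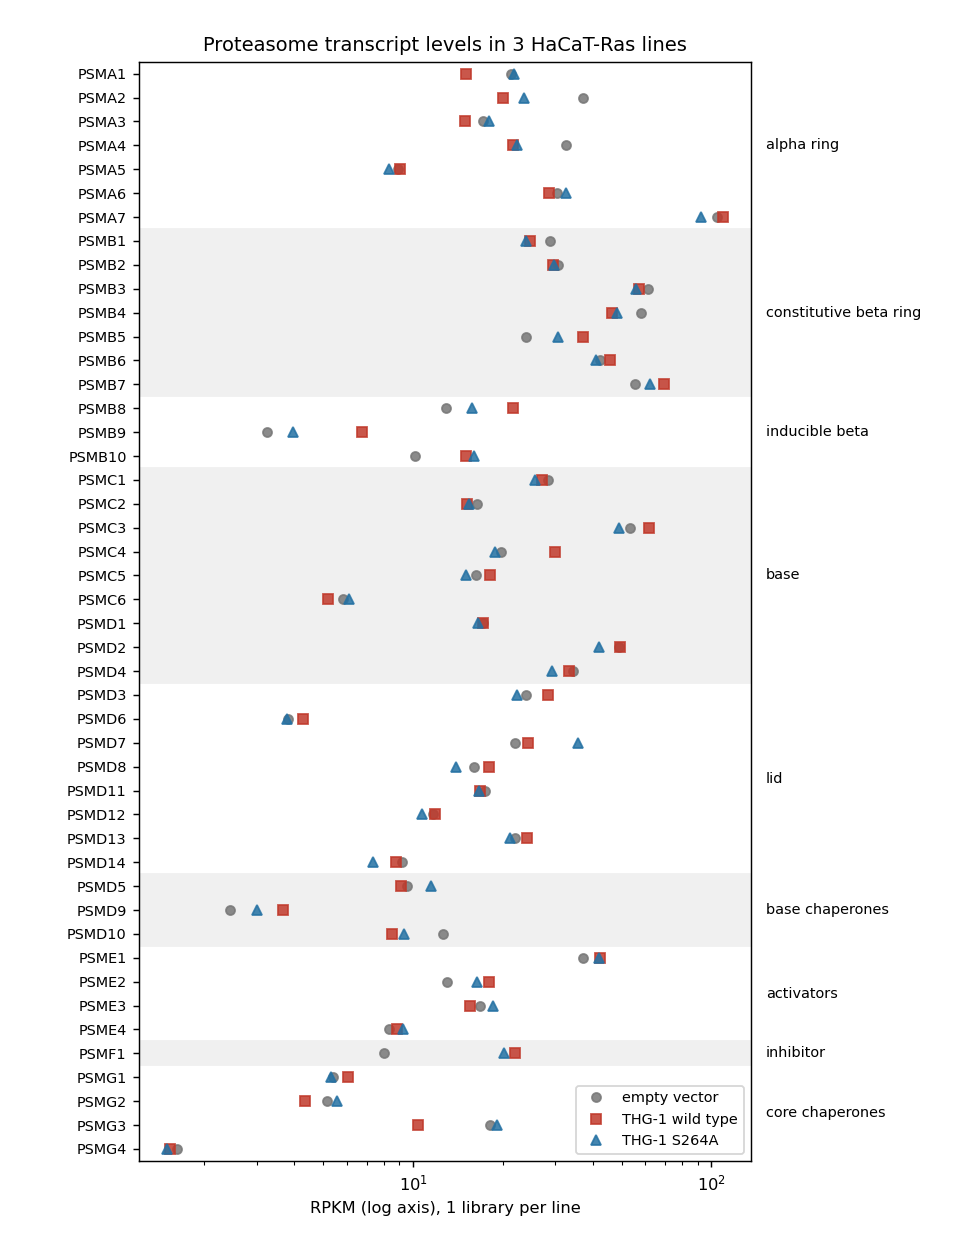
Level of the 46 expressed proteasome genes in RPKM (log axis), with 1 point for each of the 3 libraries and genes grouped by role. PSMA7 stands at the right at 92.5 to 109 RPKM, and the 3 points of a gene mostly lie close together, with PSMF1, PSMG3, PSMD7 and the inducible genes among the exceptions.

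As a whole the proteasome genes stayed close to the median gene. With wild-type THG-1 the median log2 difference from empty vector was 0.02 over the 46 genes and -0.01 over all 11993 genes at or above 1 RPKM in either library, on the scale of log2(RPKM + 1). The interquartile range of the proteasome genes ran from -0.10 to 0.17, and that of all genes from -0.26 to 0.28. With S264A the medians were -0.05 and 0.02 against empty vector, and -0.06 and 0.02 against wild type. The median gene itself moved with the scaling when libraries were set to the same upper quartile, where it lay at -0.22 in the wild-type and at -0.16 in the S264A comparison with empty vector. Under that scaling the 46 genes stood at -0.22 and -0.24. The difference between wild type and S264A turned to 0.04 with libraries scaled to an equal sum (all genes 0.12) and to 0.03 in the authors' quantile-normalised columns (all genes 0.02).

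A gene was counted as higher or lower at a fold of at least 2, and by a second rule at a fold of at least 1.3, both on the RPKM + 1 scale. With wild-type THG-1, 1 of 46 proteasome genes was at least 2-fold higher (2.17%, background 4.53% of all genes), PSMF1, and none was 2-fold lower (background 1.54%). By the second rule 8 were higher (17.4%, background 18.9%) and 5 lower (10.9%, background 16.0%). The 8 were PSMB5, PSMB8, PSMB9, PSMB10, PSMC4, PSMD9, PSME2 and PSMF1, and the 5 were PSMA1, PSMA2, PSMA4, PSMD10 and PSMG3. This split turned to 3 higher and 9 lower with upper-quartile scaling and to 5 higher and 6 lower with equal-sum scaling. With S264A against empty vector 1 gene was at least 2-fold higher (background 2.99%), again PSMF1, and none 2-fold lower (background 0.824%). At 1.3-fold 3 were higher (6.52%, background 16.0%), PSMB10, PSMD7 and PSMF1, and 3 lower (6.52%, background 10.4%), PSMA2, PSMA4 and PSMD10, against 3 higher and 8 lower with upper-quartile scaling. With S264A against wild type none reached 2-fold (backgrounds 1.55% higher and 2.23% lower). At 1.3-fold PSMA1, PSMD7 and PSMG3 were higher (6.52%, background 15.0%) and PSMB8, PSMB9 and PSMC4 lower (6.52%, background 14.0%). Equal-sum scaling gave 5 higher and 2 lower, and the quantile-normalised columns and upper-quartile scaling 3 higher and 2 lower. On the deposited scale the shares past either fold were below those of all genes. The share of all genes was not counted under the other scalings. Counts under those scalings, here and in all later paragraphs, therefore have no background. Both comparisons with empty vector share that library, so that genes named in both are not independent observations.

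**Figure D2:**
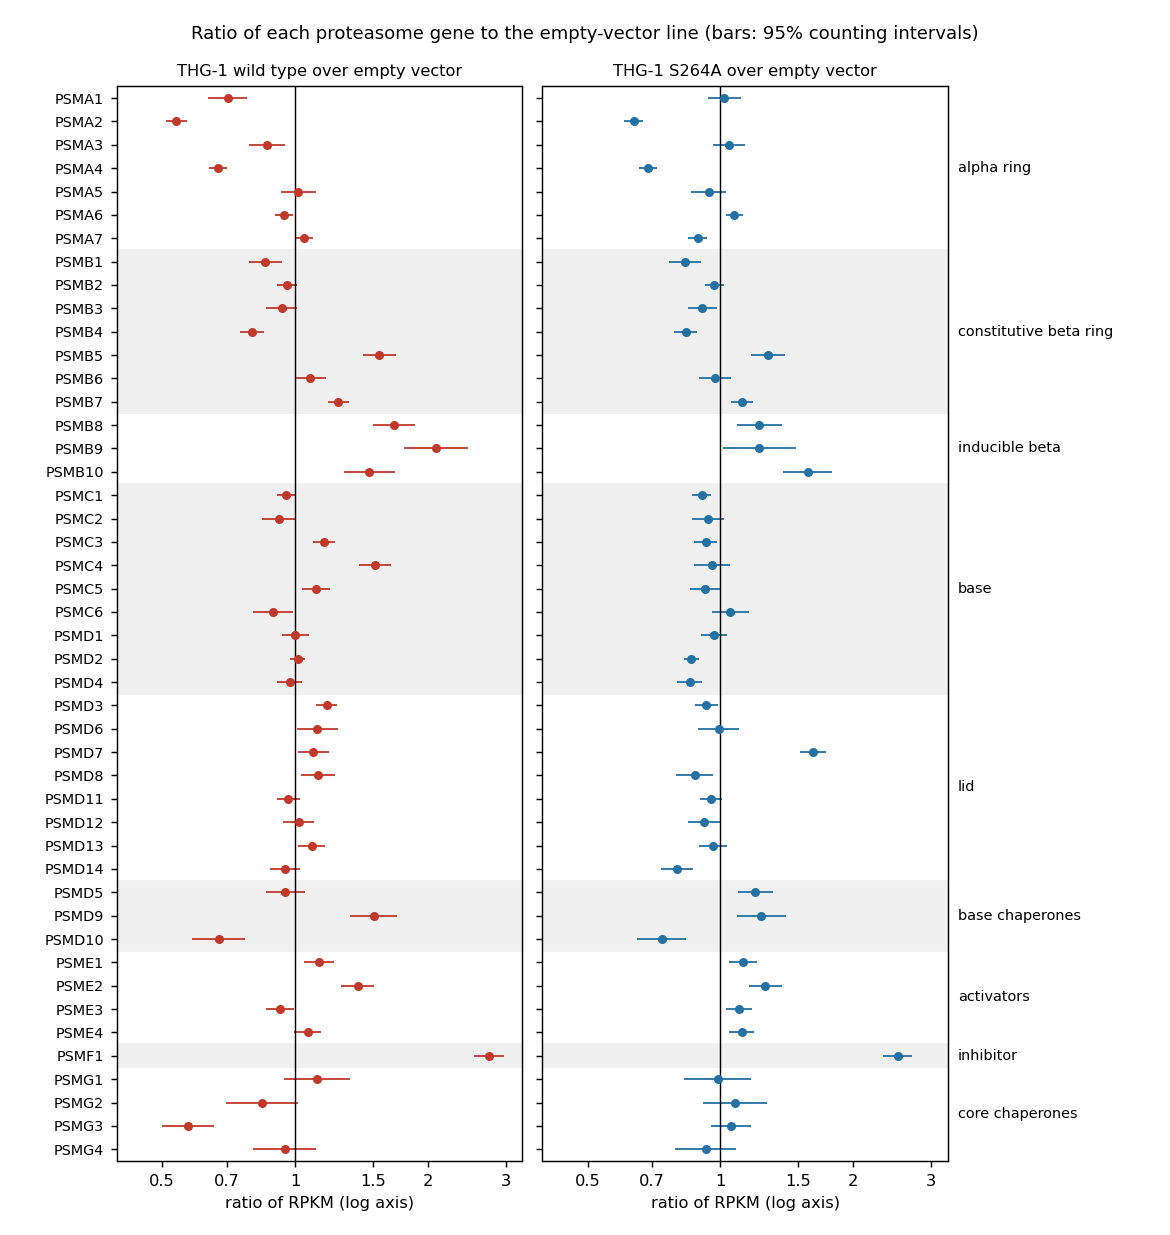
Ratio of RPKM to the empty-vector line for each of the 46 genes (log axis), with wild-type THG-1 on the left and S264A on the right and bars for 95% counting intervals. PSMF1 lies farthest to the right in both panels, PSMA2 farthest to the left, and the base and lid genes lie near 1 apart from PSMC4 with wild type and PSMD7 with S264A.

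Among the inducible subunits all 3 genes were higher with wild-type THG-1 than with empty vector, also under each of the 3 other scalings. Of the 46 proteasome genes 9 were higher in this way, and the share of all genes was not counted. PSMB10 did not pass 1.3-fold with upper-quartile and equal-sum scaling (0.27 and 0.37 on the log2 scale). PSMB9, which takes the caspase-like position, had 3.24 RPKM with empty vector, 6.75 with wild type and 3.97 with S264A. The wild-type library was highest, and S264A lay near the control. The ratio to empty vector was 2.08 (1.76 to 2.46) in the wild-type line and 1.23 (1.01 to 1.48) in the S264A line, and S264A stood at 0.588 times wild type (0.482 to 0.716). PSMB8, which takes the chymotrypsin-like position, had 12.9, 21.6 and 15.8 RPKM in the same order, with ratios of 1.68 (1.5 to 1.87) and 1.22 (1.09 to 1.38) to empty vector and of 0.731 (0.644 to 0.829) between S264A and wild type. PSMB10, which takes the trypsin-like position, did not follow this order. It had 10.2, 15.0 and 16.0 RPKM, with ratios of 1.47 (1.29 to 1.68) and 1.58 (1.39 to 1.79) to empty vector. The interval of 0.926 to 1.24 between S264A and wild type included 1. The median of the 3 was 0.70 on the log2 scale in the wild-type comparison with the control, 0.27 in that of S264A and -0.43 between S264A and wild type. With upper-quartile scaling the first fell to 0.45 and the second to 0.08.

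The constitutive counterparts were measured in the same libraries. PSMB5, the chymotrypsin-like subunit, had 23.9 RPKM with empty vector, 37.1 with wild type and 30.6 with S264A, ratios of 1.55 (1.42 to 1.70) and 1.28 (1.17 to 1.40). PSMB7, the trypsin-like subunit, had 55.5, 69.6 and 62.1 RPKM, ratios of 1.25 (1.19 to 1.32) and 1.12 (1.06 to 1.18), the second of which changed direction with the scaling. PSMB6, the caspase-like subunit, had 42.3, 45.8 and 41.1 RPKM, and both intervals against empty vector included 1. Of the 3 constitutive catalytic genes, PSMB5 thus differed most from the control.

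The ratio of an inducible gene to its counterpart within a library does not change with upper-quartile or equal-sum scaling. Quantile normalisation can change it, and PSMB9 stood there at 0.0710, 0.158 and 0.0938 times PSMB6 with empty vector, wild type and S264A. The ratios that follow are on the deposited scale. PSMB9 stood at 0.0766 times PSMB6 with empty vector (0.0678 to 0.0863), 0.147 times with wild type (0.128 to 0.169) and 0.0966 times with S264A (0.0815 to 0.114). This ratio was 1.92 times as high with wild type as with empty vector (1.60 to 2.31) and 0.656 times as high with S264A as with wild type (0.529 to 0.814). With S264A it was 1.26 times as high as with empty vector (1.03 to 1.55). PSMB8 stood at 0.541, 0.583 and 0.517 times PSMB5. Wild type differed from empty vector in this ratio by a factor of 1.08 with an interval of 0.939 to 1.24, so that a difference was not detectable at this depth, PSMB5 having a higher level as well. PSMB10 stood at 0.184, 0.216 and 0.258 times PSMB7, which was 1.18 times (1.02 to 1.35) the control ratio for wild type and 1.41 times (1.23 to 1.61) for S264A. Between S264A and wild type this ratio differed by a factor of 1.20 (1.03 to 1.40). The 3 inducible genes made up 17.8% of the summed RPKM of the 6 catalytic genes with empty vector, 22.2% with wild type and 21.1% with S264A.

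**Figure D3:**
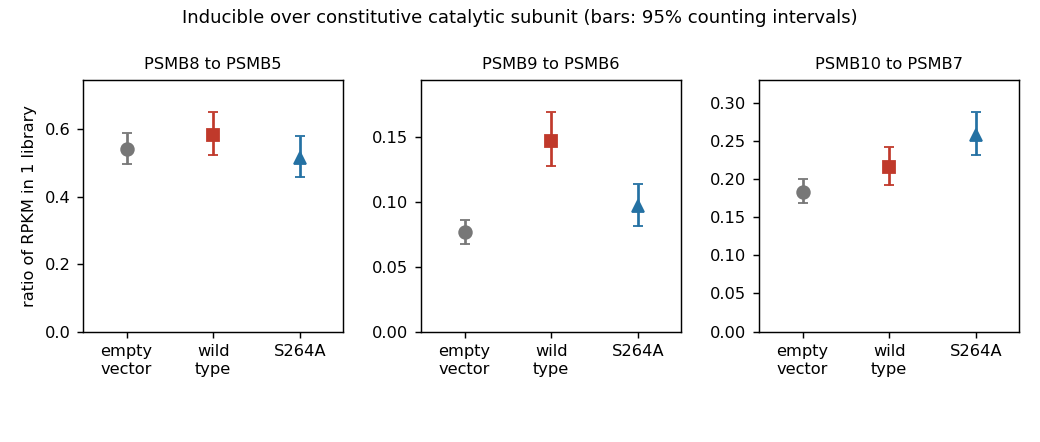
Ratio of RPKM of each inducible catalytic gene to its constitutive counterpart within each library, with 95% counting intervals. The PSMB9 to PSMB6 ratio is highest with wild-type THG-1 (0.147), the PSMB8 to PSMB5 intervals overlap in all 3 libraries, and the PSMB10 to PSMB7 ratio is highest with S264A (0.258).

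The alpha ring gates the entrance of the core. In the wild-type line 3 of its 7 genes passed 1.3-fold downwards (background 16.0% of all genes) and none upwards (background 18.9%). PSMA2 had 37.1 RPKM with empty vector, 20.02 with wild type and 23.6 with S264A, so that both THG-1 lines were below the control. Its ratios were 0.539 (0.509 to 0.570) and 0.636 (0.604 to 0.668), and in the wild-type line it passed the 2-fold rule with each of the 3 other scalings, at -1.01 to -1.11 on the log2 scale. PSMA4 had 32.5, 21.7 and 22.2 RPKM, ratios of 0.669 (0.637 to 0.702) and 0.685 (0.654 to 0.717). PSMA1 was low in the wild-type line alone, at 21.3, 15.0 and 21.7 RPKM, and S264A was 1.45 times wild type (1.29 to 1.62). Both PSMA1 and PSMA2 have 2 rows in the table, of which the row with the higher mean was used. The other row of PSMA2 had 3.63, 2.08 and 2.85 RPKM, in the same order of libraries. That of PSMA1 had 14.6, 11.6 and 11.1 RPKM, and there S264A was not above wild type (0.959, 0.841 to 1.09). The handling of reads shared by these rows is not stated in the sources used here. The remaining alpha genes, PSMA3, PSMA5, PSMA6 and PSMA7, lay within 1.3-fold of the control in both lines on the deposited scale. PSMA3 passed 1.3-fold downwards in the wild-type line with upper-quartile scaling (-0.44 on the log2 scale). PSMA6 had 30.3, 28.6 and 32.6 RPKM, the highest alpha gene in S264A against empty vector at 1.08 times (1.03 to 1.12), a direction that changed with the scaling. PSMA7 was the lowest in S264A against wild type, at 0.846 times (0.798 to 0.896). The summed RPKM of the ring was 251, 219 and 219.

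In the constitutive beta ring the 4 genes without an active site went the other way from PSMB5, for PSMB2 and PSMB3 mostly within counting error. PSMB4 had 58.1 RPKM with empty vector, 46.4 with wild type and 48.4 with S264A, ratios of 0.799 (0.749 to 0.851) and 0.834 (0.785 to 0.886). PSMB1 had 28.8, 24.7 and 24.0 RPKM, ratios of 0.857 (0.786 to 0.934) and 0.831 (0.764 to 0.904). PSMB2 and PSMB3 were also below the control in both lines under each scaling used. So were 21 of the 46 proteasome genes with wild type and 27 with S264A, and the share of all genes was not counted. With wild type the median log2 difference of all genes was -0.01 as deposited and -0.22 with upper-quartile scaling. It was -0.14 with equal-sum scaling and -0.05 in the quantile-normalised columns. The deposited ratios of PSMB2 were 0.958 (0.910 to 1.01) and 0.967 (0.920 to 1.02), and both intervals included 1. Those of PSMB3 were 0.933 (0.862 to 1.01) and 0.910 (0.843 to 0.983), of which the first interval included 1. The summed RPKM of the 7 genes was 300.5, 310.1 and 291.7, and differed far less than single members did. With equal-sum scaling it was 315.3, 291.4 and 296.8, so that wild type lay below empty vector.

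The base genes were near the control, with 1 exception. PSMC4, an ATPase of the base ring, had 19.7 RPKM with empty vector, 29.9 with wild type and 18.9 with S264A. Wild type alone was high, at 1.52 times empty vector (1.39 to 1.65), and S264A stood at 0.631 times wild type (0.569 to 0.699). Of the 5 other ATPase genes, PSMC1, PSMC2, PSMC3, PSMC5 and PSMC6, none reached 1.3-fold in any comparison. The shares of all genes past this fold, higher and lower, were 18.9% and 16.0% with wild type and 16.0% and 10.4% with S264A. Between S264A and wild type they were 15.0% and 14.0%. PSMC6 was the lowest base gene with wild type and the highest with S264A, at 5.81, 5.17 and 6.12 RPKM, with an interval for S264A against empty vector (0.958 to 1.16) that included 1. The ubiquitin receptor gene PSMD4 was the lowest with S264A, at 34.3, 33.4 and 29.2 RPKM, 0.851 times empty vector (0.797 to 0.909). With S264A 8 of 9 base genes were below the control, by log2 differences down to -0.23, and remained so under each scaling. Of these, 5 had intervals below 1. The median of all genes was 0.02 as deposited. It was -0.16 with upper-quartile scaling, -0.02 with equal-sum scaling and -0.03 in the quantile-normalised columns. The share of all genes below the control was not counted. The summed RPKM was 240.0 with empty vector, 257 with wild type and 218 with S264A. With equal-sum scaling it was 252, 242 and 222, so that wild type lay below empty vector.

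The lid genes, which surround the deubiquitinase PSMD14, held no member past 1.3-fold with wild-type THG-1 and 1 with S264A on the deposited scale. Over all genes 18.9% were higher and 16.0% lower with wild type, and 16.0% and 10.4% with S264A. PSMD7, the partner of PSMD14 in the lid, had 22 RPKM with empty vector, 24.2 with wild type and 35.7 with S264A. S264A stood apart from both other lines, at 1.62 times empty vector (1.51 to 1.74) and 1.47 times wild type (1.35 to 1.61). PSMD14 had 9.20, 8.74 and 7.34 RPKM and was the lowest lid gene in both comparisons with the control, at 0.95 times (0.877 to 1.03) for wild type and 0.797 times (0.734 to 0.865) for S264A. PSMD3, a structural lid gene, was the highest with wild type at 24.0, 28.3 and 22.3 RPKM, a ratio of 1.18 (1.11 to 1.25) whose direction changed with the scaling. PSMD8 was the lowest in S264A against wild type, at 16.0, 18.0 and 13.9 RPKM. Apart from PSMD7, all 7 lid genes were below the control with S264A under each scaling, and 4 of their 7 intervals excluded 1. The median log2 difference of all genes in this comparison was 0.02 as deposited and -0.16 with upper-quartile scaling. It was -0.02 with equal-sum scaling and -0.03 in the quantile-normalised columns. The share of all genes below the control was not counted, so that this count of lid genes has no background.

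The chaperones of the base attach to the ATPases during assembly. PSMD10, also called gankyrin, had 12.6 RPKM with empty vector, 8.50 with wild type and 9.31 with S264A, ratios of 0.673 (0.586 to 0.771) and 0.737 (0.648 to 0.837). PSMD9 had 2.43, 3.66 and 3.01 RPKM, ratios of 1.51 (1.33 to 1.71) and 1.24 (1.09 to 1.41). These 2 chaperones thus differed from the control in opposite directions in both THG-1 lines. PSMD5 had 9.57, 9.11 and 11.5 RPKM and was 1.20 times the control (1.09 to 1.31) with S264A.

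Among the chaperones of the core, PSMG3, which pairs with PSMG4 to guide the alpha ring, differed most. It had 18.2 RPKM with empty vector, 10.4 with wild type and 19.2 with S264A. Wild type was low at 0.573 times the control (0.499 to 0.656), and S264A was 1.84 times wild type (1.58 to 2.14), the largest log2 difference of the 46 genes in that comparison (0.82). Its antisense neighbour PSMG3-AS1 had 0.523, 0.213 and 0.478 RPKM, the same order as wild type against the others, and with strandedness not stated in the sources used here their reads may not be separable. PSMG4 had intervals that included 1 in all 3 comparisons. PSMG1 stood at 5.40, 6.06 and 5.33 RPKM and PSMG2 at 5.15, 4.34 and 5.56 RPKM, with intervals against empty vector that included 1.

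PSME2, the beta subunit of PA28, had 13 RPKM with empty vector, 18 with wild type and 16.4 with S264A, ratios of 1.39 (1.27 to 1.51) and 1.26 (1.16 to 1.38). PSME1, its alpha subunit, had 37.2, 42.2 and 41.8 RPKM, ratios of 1.14 (1.05 to 1.23) and 1.12 (1.04 to 1.21) whose direction depended on the scaling. The ratio of PSME1 to PSME2 within a library was 2.87 (2.68 to 3.07) with empty vector, 2.35 (2.14 to 2.58) with wild type and 2.55 (2.32 to 2.80) with S264A. The nuclear activator PSME3 had 16.7, 15.5 and 18.5 RPKM, and PSME4, which encodes PA200, had 8.28, 8.84 and 9.25 RPKM. Neither reached 1.3-fold in any comparison.

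PSMF1, which encodes the proteasome inhibitor and transport adaptor PI31, had the largest difference of all 46 genes. It had 8.01 RPKM with empty vector, 22.04 with wild type and 20.2 with S264A. The recovered reads were 1257, 1374 and 1386 at a length of 4896 bases. They share a common factor, so that fewer reads at a shorter length fit as well and would widen the intervals. Both THG-1 lines were far above the control. The ratios were 2.75 (2.55 to 2.97) and 2.52 (2.33 to 2.72), and S264A stood at 0.916 times wild type (0.850 to 0.988). Under the other scalings the log2 difference was smallest with upper-quartile scaling, at 1.11 in the wild-type and 1.05 in the S264A line, still past 2-fold. With a pseudocount of 5 RPKM the S264A line no longer reached 2-fold.

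Genes that act with the proteasome but have other symbols were taken from lists. Of 17 proteasome-associated genes present 1 was at least 1.3-fold higher (5.88%, background 18.9%) and 3 lower (17.6%, background 16.0%) with wild-type THG-1, with a median log2 difference of -0.05, and none reached 2-fold. The higher one was ADRM1, a ubiquitin receptor of the base, at 46.1, 71.7 and 53.0 RPKM, which no longer passed 1.3-fold with upper-quartile scaling (0.37 on the log2 scale), where 4 genes were lower. UCHL5, the deubiquitinase that docks on ADRM1, was the lowest at 6.86, 3.83 and 4.76 RPKM, 0.559 times the control (0.496 to 0.628). POMP, the maturation factor of the core, had 27.9, 18.3 and 23.0 RPKM, 0.654 times the control (0.578 to 0.738). With S264A against empty vector 1 gene of this list was at least 1.3-fold higher (5.88%, background 16.0%) and 2 lower (11.8%, background 10.4%), against 0 higher and 5 lower with upper-quartile scaling. The higher one was ZFAND2A, which binds the regulatory particle under stress, at 6.07, 5.03 and 8.57 RPKM.

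Of 9 regulators of proteasome gene transcription 1 was at least 1.3-fold higher with wild type (11.1%, background 18.9%), NFE2L3, at 3.59, 6.68 and 4.29 RPKM. In S264A against empty vector none was 1.3-fold higher (background 16.0%) or lower (background 10.4%). NFE2L1, the main activator of proteasome genes when proteasome activity is low, had 32.6, 36.8 and 33.9 RPKM, with a direction that changed with the scaling. With wild type against empty vector none of 6 ubiquitin genes was 1.3-fold higher (background 18.9%), and 1 was 1.3-fold lower (16.7%, near the background of 16.0%). This gene was UBA6, a ubiquitin-activating enzyme, at 6.37, 3.69 and 5.90 RPKM. Of the other extremes of these lists, NFE2L2, NGLY1 and UBA1 did not pass 1.3-fold in any comparison on the deposited scale.

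Genes of class I presentation and their regulators, which interferons are known to induce along with the immunoproteasome, were read in the same way. Of 14 class I loading genes compared, 9 were at least 1.3-fold higher with wild type (64.3%, background 18.9%), with a median of 0.64 against -0.01 over all genes. With S264A 5 were higher (35.7%, background 16.0%) and 2 lower (14.3%, background 10.4%), with a median of 0.18 against 0.02. In S264A against wild type 10 were lower (71.4%, background 14.0%), with a median of -0.47 against 0.02. Upper-quartile scaling left 7 higher and 2 lower with wild type and 3 higher and 3 lower with S264A, and equal-sum scaling left 7 lower in S264A against wild type. The share of all genes under these scalings was not counted. TAP1, a peptide transporter gene, had 6.99, 13.6 and 8.33 RPKM, 1.95 times the control (1.78 to 2.14) in the wild-type line and 1.19 times (1.07 to 1.32) in the S264A line, beside 2.08 and 1.23 for PSMB9. HLA-C and HLA-E were among the genes at least 2-fold higher with wild type on the deposited scale, but HLA-E passed 2-fold under none of the 3 other scalings (0.78 to 0.88 on the log2 scale), and HLA-C under equal-sum scaling alone. HLA-B had the highest difference of the list in both comparisons with empty vector, at 9.54, 61.6 and 37.7 RPKM. Reads shared among the closely similar HLA genes may have been split between them. In S264A against wild type the highest gene of the list, not named here, stood at 0.20 on the log2 scale. The loading chaperone gene CANX was the lowest with S264A, at 75.4, 77.9 and 45.1 RPKM, and PDIA3 the lowest with wild type, at 71.6, 54.6 and 50.9 RPKM. Among 6 interferon and class I regulators at or above 1 RPKM, 5 were at least 1.3-fold higher with wild type (83.3%, background 18.9%) and 2 with S264A (33.3%, background 16.0%), against 2 and 1 with upper-quartile scaling. IRF9 was at 3.80, 8.36 and 3.38 RPKM, highest with wild type. NLRC5, the transactivator of class I genes, was at 1.31, 2.49 and 2.53 RPKM. As for PSMB10, PSME1 and PSME2, its interval between S264A and wild type (0.885 to 1.17) included 1. The part of these regulators in the levels of the proteasome genes was not tested.

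**Figure D4:**
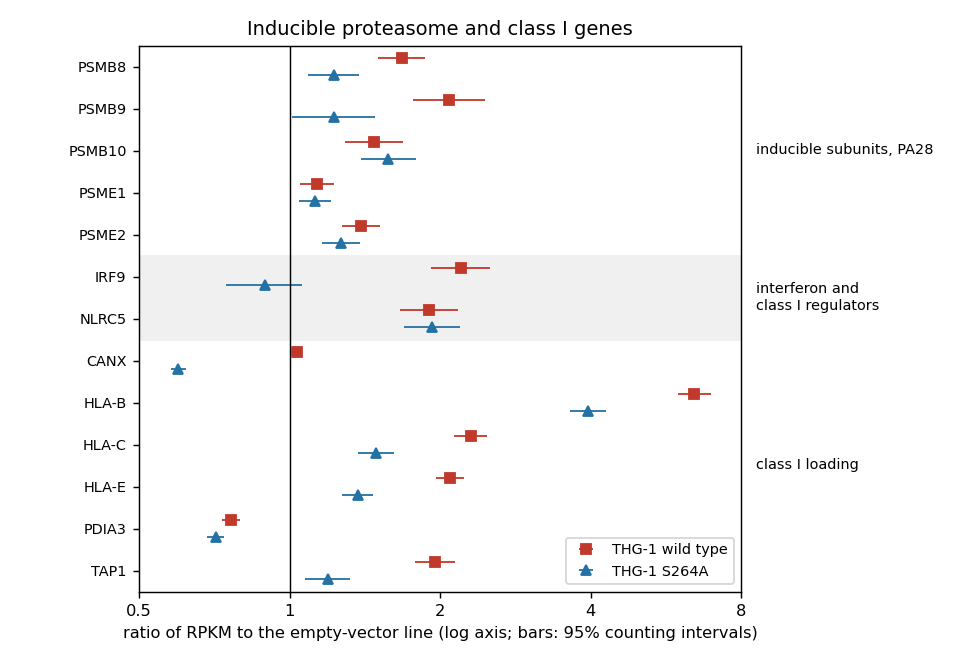
Ratio of RPKM to the empty-vector line (log axis, bars for 95% counting intervals) for the inducible subunits, PA28 genes, and the interferon and class I regulators and class I loading genes named in the text. Wild-type points lie to the right of S264A points for PSMB8, PSMB9, TAP1 and the HLA genes drawn, while PSMB10, PSME1, PSME2 and NLRC5 have overlapping intervals. The genes drawn are a choice from the lists, and TAP1 and NLRC5 were added after their values were seen. The highest loading gene and the highest regulator in S264A against wild type (log2 differences of 0.20 and 0.11) are not drawn.

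Pseudogenes of these genes had 30 rows, of which 11 were above 0 in a library and 1 reached 1 RPKM, PSMD10P2 at 0.279, 1.05 and 0.424 RPKM. Reads that fit both PSMD10 and its copies may have been split between them.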

How the data were processed

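Total RNA of 3 HaCaT-derived lines was read on a NextSeq500 sequencer, per the labels. The deposited table gives RPKM computed by the authors for each library and RPKM quantile-normalised across libraries. The submitters' processing notes name genome build hg19. The aligner, counting program, annotation and library type are not stated in the sources used here.

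Library depth came from single-exon genes with few reads, and the reads of each gene from a length at which its 3 values were whole within 0.001 reads. GENCODE 29 served only for lengths. It gave the length of 24 of the 46 expressed proteasome genes, and for the other 22 the closest length that fitted was used. Where the recovered reads share a common factor with the length, a shorter length fits as well, and the reads are not fixed by the values. The recovery was tested on simulated data. For 234 symbols with several rows, the row with the highest mean represented the gene. Differences are log2 of (RPKM + 1) in one library over that in the other, which understates low genes, over genes at or above 1 RPKM in either library. Ratios are plain ratios of RPKM with exact Clopper-Pearson intervals, and ratios of ratios have intervals from the log scale. PCR reads are not independent molecules. Alternatives were other pseudocounts, filters and scalings. Members, lists and motifs were chosen with earlier results of these data known. Values per library are given for the catalytic, activator, inhibitor and core chaperone genes and for the highest and lowest gene of each other role, and in the other lists for genes past 2-fold, the highest or the lowest. POMP, NFE2L1, NLRC5 and TAP1 were added after their values were seen. Python 3.11.15, pandas 2.3.3 and scipy 1.17.1 were used. Some genes of the other lists are not reported here by name. Protein sequences were not used here.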

Additional observations from a re-analysis of the deposited data

How the results depend on the processing

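Of 644 values of single genes under other settings, 534 lay within the counting interval of the value given. All 160 that concern a gene past 1.3-fold kept its sign. Of 108 counts of members 97 stayed within 1.5 times, and of 270 medians 209 within 0.1. No paired analysis was possible because each line has 1 library, and for the same reason no replicate could be left out. With wild type against empty vector, 2 genes were 2-fold higher with a pseudocount of 0.1 RPKM. In the quantile-normalised columns, with upper-quartile scaling and with equal-sum scaling 1 gene, PSMA2, was 2-fold lower. At 1.3-fold, 3 were higher and 9 lower with upper-quartile scaling, 5 higher with equal-sum scaling, and 3 lower with PSMA1 and PSMA2 left out, an alternative chosen after seeing the data. The median of all members was -0.12, -0.22 and -0.13 in the quantile-normalised columns and with upper-quartile and equal-sum scaling. That of the inducible genes was 0.57, 0.45 and 0.55, and 0.51 with a pseudocount of 5 RPKM. With S264A against empty vector, 0 genes were 2-fold higher with a pseudocount of 5 RPKM and 8 were 1.3-fold lower with upper-quartile scaling, where the medians were -0.24 over all members and 0.080 over the inducible genes. A filter at 5 RPKM, which removes PSMB9, gave 0.44 for the latter. With S264A against wild type and equal-sum scaling, 5 genes were 1.3-fold higher, and the medians were 0.042 and -0.32. The cause of these shifts was not tested. The ratios within libraries stayed inside their counting intervals in the quantile-normalised columns (9 of 9). Depth limits PSMB9 most among the inducible genes, with as few as 171 reads.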
